A study of Mus musculus with 36 samples.

Results

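Digenic kidneys were set against Pkd1-RC/RC kidneys at postnatal day 3 (P3), with 3 libraries of each genotype, which are 6 of the 36 libraries of the series. The libraries were chosen by the genotype and age in their labels. All came from total RNA of whole kidneys of C57BL/6 mice, and every library carries its own mouse number. The digenic mice were Pkhd1-/- and Pkd1RC/RC together, and the Pkd1-RC/RC mice carried the same RC alleles of Pkd1 with Pkhd1 not labelled as mutant, so the groups share the Pkd1 genotype and differ in Pkhd1. Pkhd1-/- and WT kidneys, also 3 libraries each at P3, served as further groups, and the same 4 genotypes were sampled at P0 and P12. The sources used here do not give the cell types in which either allele acts.

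Pkd1 encodes polycystin-1 and Pkhd1 encodes fibrocystin, membrane proteins of the tubule cell and its primary cilium. Loss of the human genes causes dominant and recessive polycystic kidney disease, and the RC allele of Pkd1 is known as hypomorphic. Interferons act through receptors that activate transcription factors, which bind short DNA elements beside antiviral genes. Interferon gamma also induces GTPases of the IRG and GBP families and the genes that present peptides on major histocompatibility complex (MHC) molecules. Kidneys hold resident macrophages from before birth, and macrophages are known to gather around cysts in polycystic kidneys.

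The 6 libraries held between 54188772 and 77637005 counts. Levels are given as CPM, which are counts scaled to library size with edgeR's TMM factors over the 12 P3 libraries; the Xist, Y-linked and adrenal values of the next sentences are scaled to total counts alone. In 3 of the 36 libraries the sex in the column header differed from the sex seen in Xist and 4 Y-linked genes; whether the header or the sample is exchanged cannot be told from the files. All 3 digenic libraries were female by header and by transcripts, with 93.9 to 350.0 CPM of Xist. The 3 Pkd1-RC/RC libraries were headed male, but replicate 1 had 45.8 CPM of Xist and 0.812 CPM of Y-linked transcripts, so genotype and sex were nearly aligned. Transcripts of 5 adrenal steroid genes summed to 462 CPM in digenic replicate 3 and to 493 CPM in Pkd1-RC/RC replicate 1, against 2.44 to 3.56 CPM in the other 4 libraries. On the first principal component of the 6 libraries, with 45.4% of the variance, digenic replicate 3 lay among the Pkd1-RC/RC libraries. Kidney identity held in both groups: 36 proximal tubule genes summed to 9604 to 11519 CPM in digenic and to 10357 to 11509 CPM in Pkd1-RC/RC libraries.

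Pkhd1 (ENSMUSG00000043760, mm10, chromosome 1, 20057779 to 20618064), the gene targeted in the digenic mice, had 11.8, 11.8 and 10.5 CPM in digenic kidneys, against 85.1, 100.002 and 121.6 CPM in Pkd1-RC/RC kidneys. The groups lay far apart, and the log2 fold change was -3.17 ± 0.20 (SE; adjusted p = 1.52e-05). Pkhd1-/- kidneys had 7.16, 9.85 and 6.80 CPM, so the mutant genotypes shared a low level. Its antisense transcript 4930486I03Rik, on the opposite strand within Pkhd1 (GENCODE M21, chromosome 1, 20356452 to 20392300), had 0 counts in the 3 digenic libraries and 427 counts in the 3 Pkd1-RC/RC libraries. Against a floor of 3 counts over the digenic group it was at least 175-fold lower. The sources used here do not say whether the counting used strand, so reads of the overlapping pair cannot be told apart. Pkd1 had 87.6, 84.5 and 72.5 CPM in digenic kidneys, against 61.5, 66.1 and 71.9 CPM in Pkd1-RC/RC kidneys. These groups lay side by side without overlap, at a log2 fold change of 0.29 ± 0.11 (SE) that missed the threshold (adjusted p = 0.329). Pkd2, which encodes the channel partner of polycystin-1, differed by 0.23 ± 0.15 (log2, SE; adjusted p = 0.657), and its groups overlapped.

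The counts of the 12 P3 libraries were tested with edgeR's quasi-likelihood test, with p-values adjusted after Benjamini and Hochberg over all genes and 0.05 as the threshold for a call. Of 18043 genes, 83 were called (0.46%), 59 higher in digenic kidneys (0.327%) and 24 lower (0.133%). At an unadjusted p under 0.05 there were 1875 genes. Changes ran to a log2 fold change of 4.54 among the rises, and 58 of the 83 genes differed by at least 2-fold. The 3 digenic libraries did not overlap the 3 Pkd1-RC/RC libraries in any of the 83 genes. Over all genes, 1687 (9.35%) lay wholly higher and 1766 (9.79%) wholly lower in digenic libraries. Of the 83, 1 lies on the X chromosome (AU015836) and 0 on the Y chromosome. Of the 59 rises, 13 were on the interferon response list, 3 on the macrophage list and 42 on none of the 36 lists, and 22 of the 24 falls were on none. The sign of all 83 differences held in each of 17 other settings, but the number called did not. These genes were chosen from the same libraries, so a kept sign or a low unadjusted p in another setting follows in part from that choice. With sex by transcripts as a term 7 genes were called, all lower in digenic kidneys (Pkhd1, 4930486I03Rik, Sp110, G530012D18Rik, Snhg6, Adhfe1 and Dpep1), although all 83 kept an unadjusted p under 0.05 and the median ratio of their log2 fold changes to those without the term was 0.977. Without digenic replicate 1, 2 or 3 the test called 22, 31 or 456 genes, and without Pkd1-RC/RC replicate 1, 2 or 3 it called 10, 11 or 9. Without the 3 P3 libraries that hold adrenal transcripts 191 genes were called. That setting drops digenic replicate 3, the lowest digenic library in 48 of the 59 rises. It also drops Pkd1-RC/RC replicate 1, the only library of its group that was female by transcripts. Sex and genotype are then fully aligned between the 2 groups. Over the whole comparison, sex and genotype cannot be told apart in 5 of the 6 libraries.

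Many interferon response genes rose in digenic kidneys. Of 28 measured genes of this list, 13 were called higher and 0 lower, beside 0.327% of all genes, and all 28 had a higher fitted level. Their median log2 fold change was 1.53, against -0.0031 over all genes tested. In 27 of the 28 the digenic libraries lay wholly above the Pkd1-RC/RC libraries, beside 9.35% of all genes. The list had 0 calls without Pkd1-RC/RC replicate 1, 2 or 3 or with sex by transcripts as a term, 2 and 5 without digenic replicates 1 and 2, and 24 without digenic replicate 3; its median lay between 1.10 and 1.88 in all settings tried. The RefSeq promoter table (build GRCm38.p6) held a window, from 250 bases before to 50 after the gene start, for 35 of the 59 genes that rose. The core of the interferon-stimulated response element, GAAA, any 2 bases and GAAA on either strand, occurred in 4 of these 35 (11.4%) and in 3.99% of all 27025 genes with a window. The 70 bases around it are shown for these 4 genes because this is the element through which interferon is known to act on Ifit1, Isg15 and their kin; capitals mark the core, and each sequence reads along the gene.
Ifit1, chr19:34640765-34640834, plus strand: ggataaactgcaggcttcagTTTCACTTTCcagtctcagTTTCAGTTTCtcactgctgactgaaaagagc
Ifit3, chr19:34583353-34583422, plus strand: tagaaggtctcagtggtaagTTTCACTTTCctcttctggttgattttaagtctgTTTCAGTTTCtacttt
Isg15, chr4:156200847-156200916, minus strand: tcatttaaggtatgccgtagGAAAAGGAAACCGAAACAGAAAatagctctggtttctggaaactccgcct
Stat2, chr10:128270256-128270325, plus strand: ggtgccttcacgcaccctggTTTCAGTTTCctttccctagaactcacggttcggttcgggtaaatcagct
Ifit1 and Ifit3 each hold 2 separate cores in reverse orientation, Stat2 holds 1, and Isg15 holds 3 that overlap into a single run. The first core starts 104 bases before the gene start in Ifit1, 156 in Ifit3, 78 in Isg15 and 222 in Stat2. The gamma-activated site TTCNNNGAA, which is its own reverse complement, occurred in 2 of the 35 genes (5.71%) and in 9.55% of all genes. Of the 24 genes that fell, 14 had a window, and each motif occurred in 1 of them (7.14%).

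Ifit1, which binds foreign RNA that lacks host cap methylation, had 13.1, 29.8 and 8.82 CPM in digenic kidneys, against 4.35, 4.32 and 3.13 CPM in Pkd1-RC/RC kidneys. Digenic replicate 2 was the highest and replicate 3 the lowest, and all 3 lay above the Pkd1-RC/RC range. The log2 fold change was 2.14 ± 0.36 (SE; adjusted p = 0.0338). Isg15, a ubiquitin-like protein conjugated to others during infection, had 20.7, 41.5 and 17.7 CPM in digenic and 9.60, 7.22 and 6.70 CPM in Pkd1-RC/RC kidneys. Uba7, the enzyme that activates Isg15 for conjugation, had 29.7, 43.9 and 12.1 CPM in digenic and 9.70, 7.73 and 8.31 CPM in Pkd1-RC/RC kidneys. Usp18, the protease that removes Isg15, rose by 1.52 ± 0.28 on the log2 scale, so the conjugate, its activating enzyme and its protease were all called higher.

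Zbp1, a sensor of Z-form nucleic acid that can start necroptosis, showed the largest called rise. It had 5.36, 19.0 and 2.21 CPM in digenic kidneys, against 0.504, 0.379 and 0.266 CPM in Pkd1-RC/RC kidneys, and the log2 fold change was 4.54 ± 0.67 (SE; adjusted p = 0.0228). WT kidneys lay between these groups, at 0.690 to 0.895 CPM. Oas2, which makes the second messenger that activates RNase L, had 4.04, 4.67 and 1.78 CPM in digenic and 0.626, 0.361 and 1.07 CPM in Pkd1-RC/RC kidneys. Oasl2, a relative of the Oas enzymes, had 43.8, 90.4 and 38.3 CPM in digenic and 22.6, 16.6 and 13.4 CPM in Pkd1-RC/RC kidneys. Both were called, with rises of 2.34 ± 0.45 and 1.71 ± 0.28 on the log2 scale.

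Irf7, the transcription factor that amplifies type I interferon, had 31.5, 55.3 and 19.7 CPM in digenic kidneys, against 12.3, 8.25 and 7.90 CPM in Pkd1-RC/RC kidneys. The groups did not overlap, and the log2 fold change was 1.91 ± 0.33 (SE; adjusted p = 0.0338). Stat2, the interferon signal transducer, had 29.5, 54.1 and 21.8 CPM in digenic and 14.2, 13.6 and 14.7 CPM in Pkd1-RC/RC kidneys and was called at 1.31 ± 0.24. The other called genes of the list were Ifit3, Rtp4, Xaf1, Ifi44 and Mx2, at log2 fold changes from 1.30 to 2.11. Phf11d, a PHD finger protein gene outside the list, had 3.74, 5.90 and 3.17 CPM in digenic and 1.46, 1.12 and 1.09 CPM in Pkd1-RC/RC kidneys, and rose by 1.80 ± 0.28.

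No interferon-inducible GTPase was called, although their fitted differences were large. All 14 measured members lay wholly above the Pkd1-RC/RC range, beside 9.35% of all genes, with a median log2 fold change of 4.18 and a range from 1.67 to 6.36. Each had an unadjusted p under 0.05, and the list's adjusted p-values began at 0.077. Tgtp1 had 45.2, 213 and 3.23 CPM in digenic kidneys, against 1.06, 0.813 and 1.28 CPM in Pkd1-RC/RC kidneys; its near-identical neighbour Tgtp2 had 29.2, 142.7 and 2.40 CPM in digenic and 0.974, 0.488 and 0.911 CPM in Pkd1-RC/RC kidneys. Shared reads make the split between these copies uncertain. Replicate 2 was by far the highest digenic library of both, and replicate 3 lay just above the Pkd1-RC/RC range. Igtp, a regulatory IRG protein chosen after its values were seen, had 97.7, 551 and 19.3 CPM in digenic and 12.5, 8.79 and 9.35 CPM in Pkd1-RC/RC kidneys. Gbp2, a guanylate-binding protein chosen likewise, had 80.5, 562 and 14.1 CPM in digenic and 6.12, 3.45 and 4.5 CPM in Pkd1-RC/RC kidneys. In DESeq2 and without digenic replicate 3 all 14 members were called. Without digenic replicate 2 the median was 2.31 and 3 were called. Without the libraries that hold adrenal transcripts, digenic replicate 3 among them, 13 were called.

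Antigen presentation genes were also spread widely within the digenic group. Of 19 measured MHC class I presentation genes, 0 were called, 13 had digenic libraries wholly above the Pkd1-RC/RC libraries, beside 9.35% of all genes, and the median log2 fold change was 1.59. Without digenic replicate 2 the median was 0.99 with 0 called, and without digenic replicate 3 all 19 were called. H2-K1, a classical class I heavy chain, had 469.9, 406 and 75.4 CPM in digenic kidneys, against 66.7, 63.6 and 68.2 CPM in Pkd1-RC/RC kidneys. H2-D1 had 459, 479 and 122 CPM in digenic and 111, 104 and 106 CPM in Pkd1-RC/RC kidneys. In both genes digenic replicates 1 and 2 stood far above every other library and replicate 3 lay just above the Pkd1-RC/RC range. Their adjusted p-values were 0.107 and 0.0976. Of 9 measured MHC class II presentation genes, 0 were called and 5 had digenic libraries wholly above the Pkd1-RC/RC libraries, beside 9.35% of all genes, with a median of 2.52. Without digenic replicate 3, 8 of the 9 were called. H2-Aa had 104.6, 122 and 4.66 CPM in digenic and 3.84, 3.58 and 4.16 CPM in Pkd1-RC/RC kidneys. H2-Ab1 had 186, 211 and 25.6 CPM in digenic and 24.0, 24.9 and 24.9 CPM in Pkd1-RC/RC kidneys. High class II levels were thus seen in digenic replicates 1 and 2: over the list, replicate 3 had a median of 0.06 above the Pkd1-RC/RC mean on the log2(CPM + 0.1) scale, and replicates 1 and 2 had medians of 2.39 and 3.10.

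The digenic replicates ranked alike across these lists. Replicate 2 exceeded replicate 1, and replicate 1 exceeded replicate 3, in 27 of 28 interferon response genes, 14 of 14 GTPases, 17 of 19 class I genes and 8 of 9 class II genes. Over the 59 genes that rose, the median above the Pkd1-RC/RC mean was 1.35, 1.83 and 0.84 in digenic replicates 1, 2 and 3. Relative to the WT mean, the same 59 genes had a median of 0.14 in the Pkd1-RC/RC library that was female by transcripts, 0.06 and 0.07 in the male Pkd1-RC/RC libraries, and 0.06 in the female WT library. The digenic medians on that scale were 1.51, 1.93 and 0.90. These 59 genes were chosen because digenic libraries exceeded Pkd1-RC/RC libraries, so the medians of both groups follow in part from that choice. Hence they cannot tell sex from genotype.

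**Figure D1:**
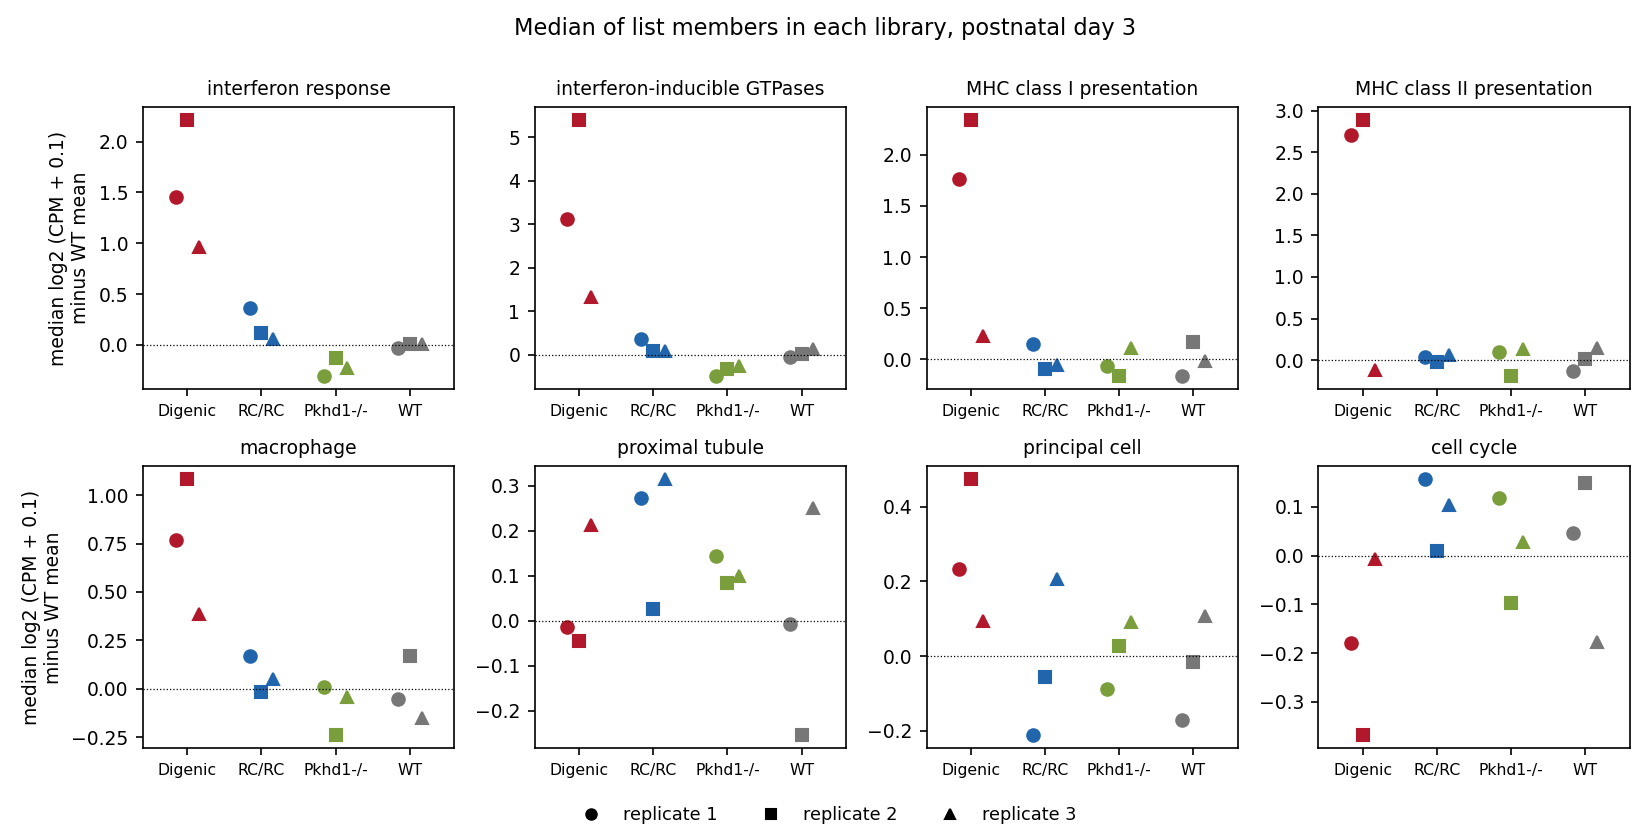
Median over the members of 8 gene lists in each P3 library, as log2(CPM + 0.1) minus the WT mean (y axis), by genotype (x axis), with a symbol for each replicate. In the interferon response panel all 3 digenic libraries lie above the rest, whereas in the MHC class II panel digenic replicate 3 lies with the other genotypes.

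Some macrophage genes rose as well. Of 21 measured macrophage markers, 3 were called higher (Cd163, Fcgr1 and Lyz2) and 0 lower, beside 0.327% of all genes called higher. In 17 the digenic libraries lay wholly above the Pkd1-RC/RC libraries, beside 9.35% of all genes, and the median log2 fold change was 0.75. With sex by transcripts as a term 0 were called. Without Pkd1-RC/RC replicate 1, 2 or 3 the list had 1, 0 or 0 calls, and without digenic replicate 1, 2 or 3 it had 1, 2 or 11. Summed over the list they reached 486, 620 and 379.6 CPM in digenic kidneys, against 315, 286 and 296 CPM in Pkd1-RC/RC kidneys. In whole tissue, more cells of a type and more RNA per cell cannot be told apart. Cd163, the hemoglobin scavenger receptor of resident macrophages, had 5.45, 7.44 and 5.51 CPM in digenic and 2.56, 1.68 and 1.79 CPM in Pkd1-RC/RC kidneys, with a log2 fold change of 1.61 ± 0.21 (SE; adjusted p = 0.00889). Fcgr1, the high-affinity IgG receptor, had 8.46, 12.5 and 4.88 CPM in digenic and 3.32, 2.73 and 2.68 CPM in Pkd1-RC/RC kidneys. Lyz2, the macrophage lysozyme, had 71.6, 123 and 57.1 CPM in digenic and 40.0, 37.1 and 35.2 CPM in Pkd1-RC/RC kidneys. The pan-macrophage gene Csf1r, the receptor for colony-stimulating factor 1, had 91.7, 99.5 and 77.2 CPM in digenic and 58.7, 60.1 and 66.9 CPM in Pkd1-RC/RC kidneys, and missed the threshold at 0.53 ± 0.12 (adjusted p = 0.0798).

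Outside that list Msr1, a scavenger receptor, had 10.8, 15.3 and 4.33 CPM in digenic and 3.23, 2.55 and 2.20 CPM in Pkd1-RC/RC kidneys, a rise of 1.93 ± 0.34. Ms4a6d, a membrane protein of monocytes and macrophages, had 6.99, 9.54 and 3.74 CPM in digenic and 2.21, 1.91 and 1.96 CPM in Pkd1-RC/RC kidneys. Lair1, an inhibitory collagen receptor of leukocytes, had 5.14, 6.54 and 2.31 CPM in digenic and 1.27, 1.07 and 1.21 CPM in Pkd1-RC/RC kidneys. Adam8, a leukocyte metalloprotease, had 2.67, 3.13 and 2.24 CPM in digenic and 0.887, 0.596 and 0.589 CPM in Pkd1-RC/RC kidneys. These 4 were named by a rule that requires a call and no overlap between the groups. Siglec1, the sialic acid receptor of tissue macrophages, was chosen after its values were seen and rose by 1.59 ± 0.22 on the log2 scale.

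Of 9 measured chemokines, 1 was called, beside 0.46% of all genes. This was Ccl12, a monocyte attractant related to Ccl2. It had 4.0, 6.32 and 1.99 CPM in digenic kidneys, against 0.556, 0.650 and 0.743 CPM in Pkd1-RC/RC kidneys, a log2 fold change of 2.65 ± 0.38 (SE; adjusted p = 0.0151). Ccl21a, which guides dendritic cells and lymphocytes and was not on the list, had 24.9, 21.3 and 10.02 CPM in digenic and 4.30, 5.31 and 5.09 CPM in Pkd1-RC/RC kidneys; it has near-identical copies among which reads may be split. Cxcl10, the interferon-induced attractant of T cells, was named after its values were seen and had 6.85, 47.0 and 3.46 CPM in digenic and 1.84, 0.885 and 1.23 CPM in Pkd1-RC/RC kidneys (adjusted p = 0.0990). Markers of lymphocytes and neutrophils gave no call. The 9 measured lymphocyte genes had a median of 0.07 and summed to 26.6 to 38.95 CPM in digenic and 29.0 to 30.3 CPM in Pkd1-RC/RC libraries, and 0 were called. The 9 measured neutrophil genes had a median of 0.20 and summed to 21.4 to 30.5 CPM in digenic and 20.2 to 25.4 CPM in Pkd1-RC/RC libraries, again with 0 called. Of 17 complement genes 0 were called, with a median of 0.62. In 8 of the 17 the digenic libraries lay wholly above and in 0 wholly below the Pkd1-RC/RC libraries, beside 9.35% and 9.79% of all genes.

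**Figure D2:**
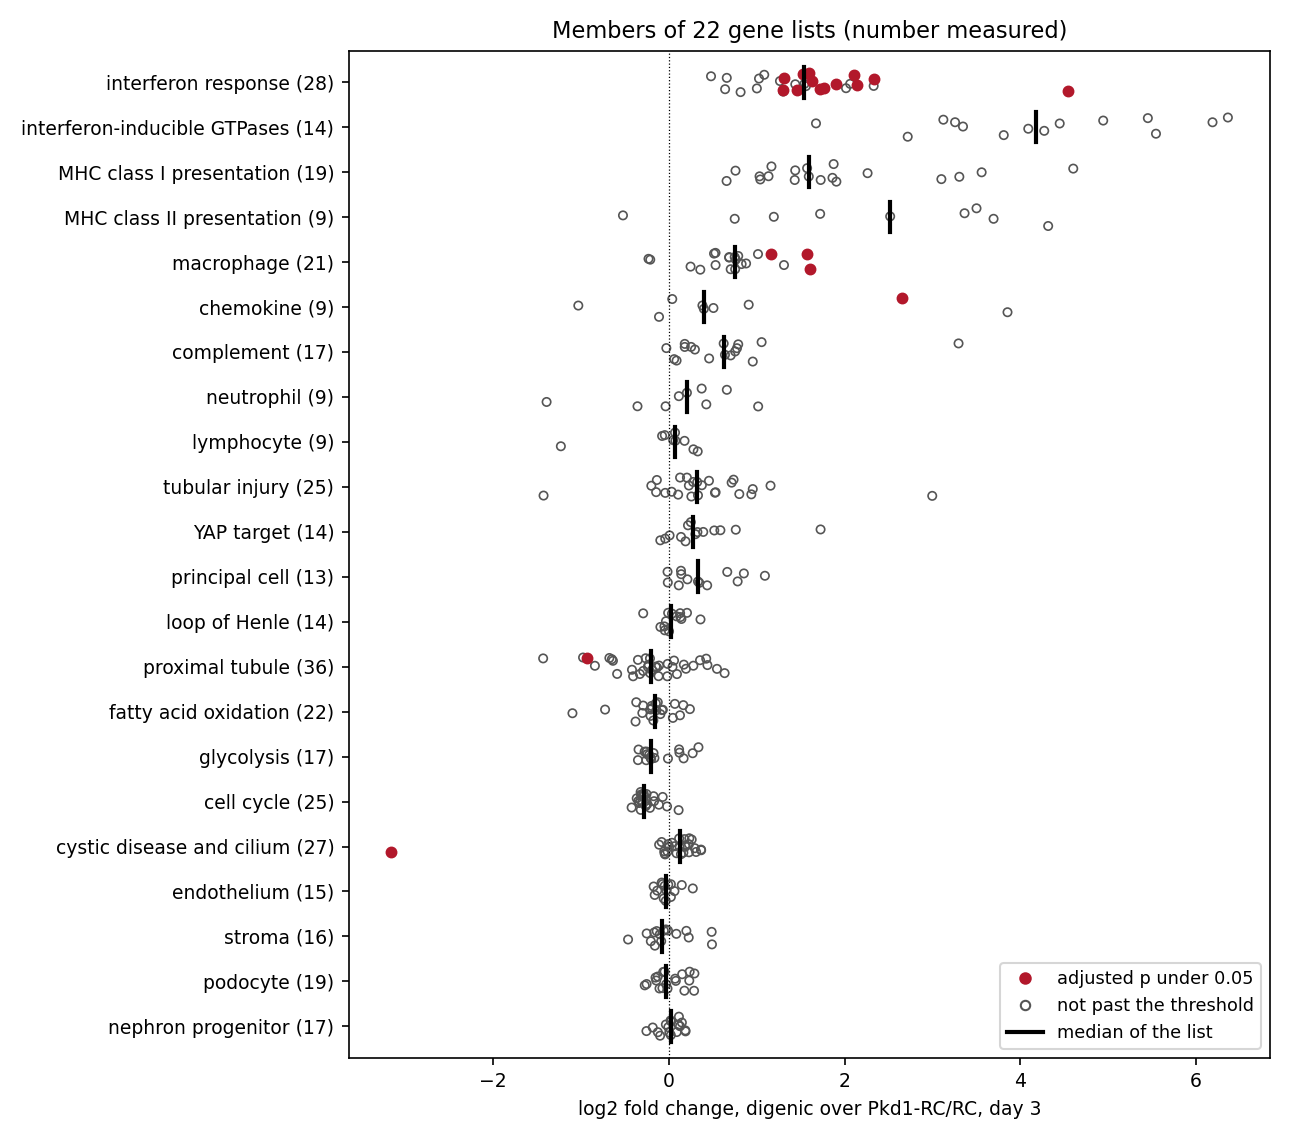
Log2 fold change of digenic over Pkd1-RC/RC at P3 (x axis) for every measured member of 22 gene lists (y axis, with the number measured); filled points passed an adjusted p of 0.05 and bars mark list medians. The medians of the interferon, GTPase and MHC lists lie between 1.53 and 4.18, whereas those of the podocyte, endothelium, stroma, nephron progenitor and loop of Henle lists lie between -0.07 and 0.02; principal cells lie at 0.33 and the proximal tubule at -0.20.

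Other called rises fell outside the immune lists, and the genes below were chosen after their values were seen. Serpina6, the plasma carrier of glucocorticoids, had 1465, 1487 and 1487 CPM in digenic kidneys, against 770.2, 765 and 759.9 CPM in Pkd1-RC/RC kidneys. Each group was tight, and the log2 fold change was 0.95 ± 0.14 (SE; adjusted p = 0.0151). Hsd11b1, the enzyme that regenerates active glucocorticoid, had 19.0, 26.8 and 21.8 CPM in digenic and 8.66, 9.32 and 8.32 CPM in Pkd1-RC/RC kidneys. Hif3a, a hypoxia-inducible factor subunit, had 45.9, 58.4 and 59.6 CPM in digenic and 24.9, 24.8 and 27.4 CPM in Pkd1-RC/RC kidneys. In Hif3a the order of the digenic replicates was not that of the interferon genes. Slc6a18, a neutral amino acid transporter of the proximal tubule, had 325, 447 and 377 CPM in digenic and 203, 225 and 226 CPM in Pkd1-RC/RC kidneys, and was called at 0.81 ± 0.16. Aldh1a1, which makes retinoic acid, and Cbs, the first enzyme of transsulfuration, rose by 1.05 ± 0.19 and 1.07 ± 0.21 on the log2 scale. Lrrc31, which was named by its size of change, had 3.03, 3.91 and 1.48 CPM in digenic and 0.852, 0.740 and 0.757 CPM in Pkd1-RC/RC kidneys.

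**Figure D3:**
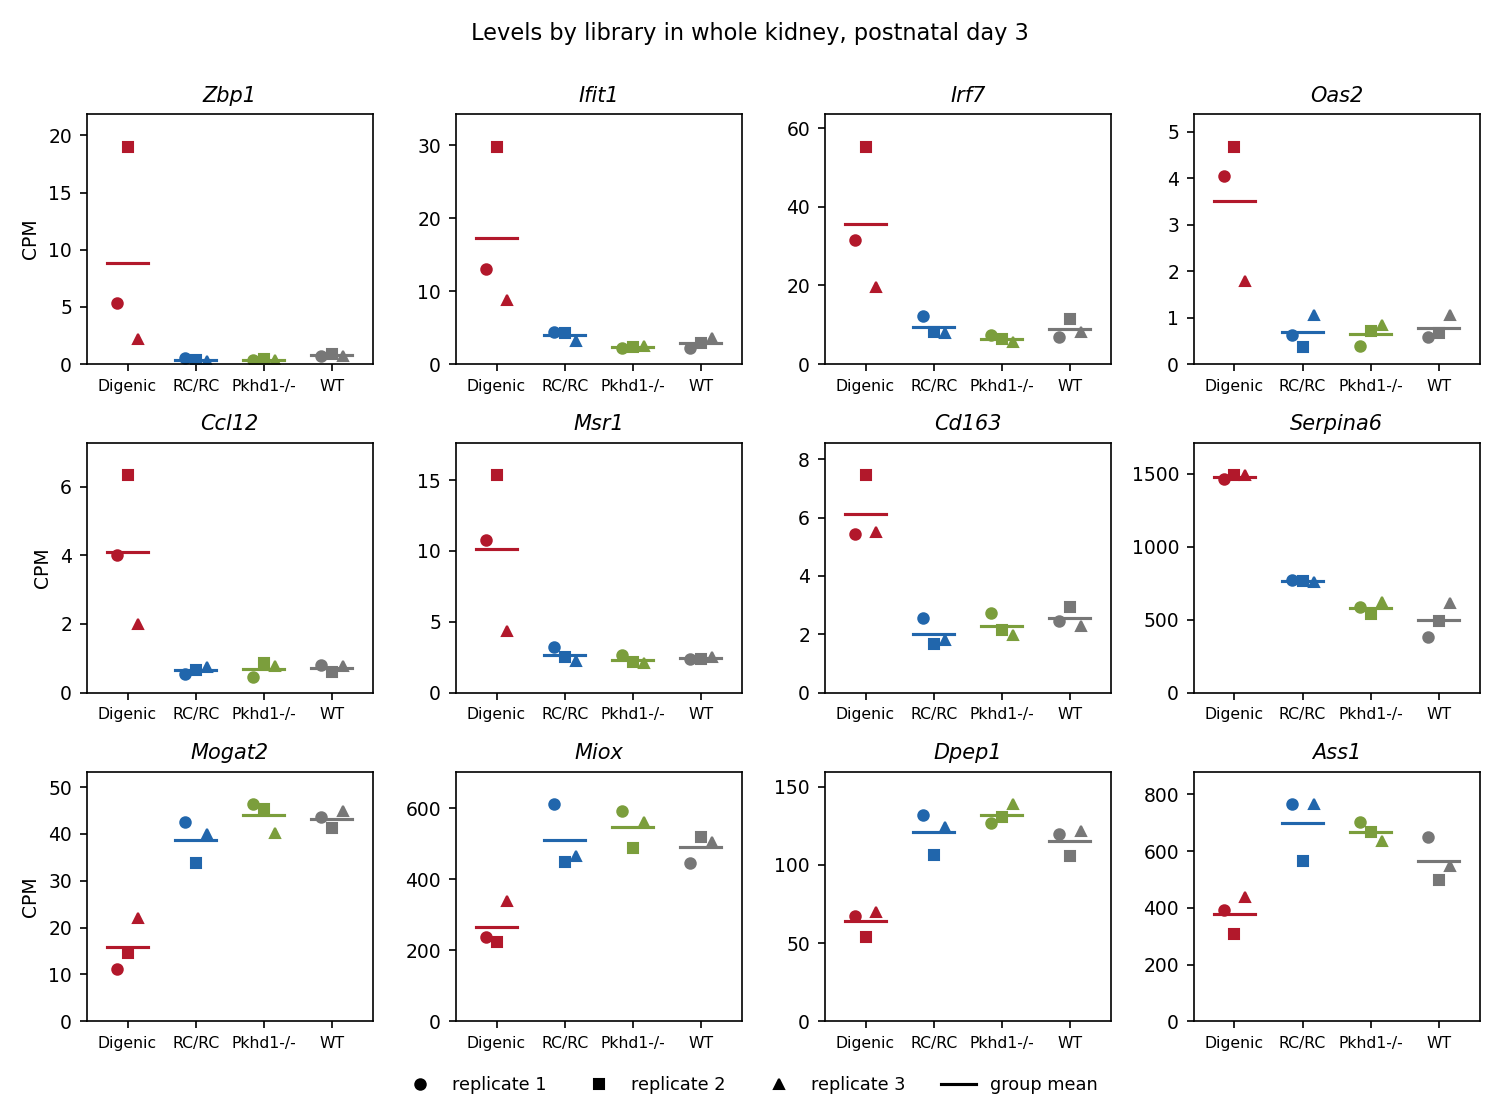
CPM (y axis, linear from 0) of 12 genes in each P3 library by genotype (x axis), with a symbol for each replicate and a line at each group mean. Digenic libraries lie above the Pkd1-RC/RC libraries in the first 8 panels and below them in the last 4, and replicate 2 is the highest digenic library of Zbp1, Ifit1, Irf7, Oas2, Ccl12, Msr1 and Cd163.

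Of the 24 falls, 18 were of genes over 20 Mb from Pkhd1. The glycolysis and fatty acid oxidation lists had 0 of 17 and 0 of 22 genes called, with median log2 fold changes of -0.20 and -0.16. In 8 of the 17 and 7 of the 22 the digenic libraries lay wholly below the Pkd1-RC/RC libraries, beside 9.79% of all genes. In 1 and 0 they lay wholly above, beside 9.35% of all genes. None of the called falls below belongs to either list, and Miox is on the proximal tubule list. Miox, the renal enzyme that breaks down myo-inositol, had 237, 222 and 339.7 CPM in digenic kidneys, against 612, 450.2 and 467 CPM in Pkd1-RC/RC kidneys. Here digenic replicate 3 was the highest of its group and still below the Pkd1-RC/RC range, and the log2 fold change was -0.94 ± 0.16 (SE; adjusted p = 0.0338). Dpep1, the brush border dipeptidase, had 67.5, 54.2 and 70.2 CPM in digenic and 132, 106 and 124.5 CPM in Pkd1-RC/RC kidneys, with a log2 fold change of -0.92 ± 0.11 (adjusted p = 0.00486). Ass1, which makes argininosuccinate for renal arginine synthesis, had 393, 308 and 439 CPM in digenic and 766, 565 and 765 CPM in Pkd1-RC/RC kidneys. Its near-identical copy Gm5424 was called too, at -0.92 ± 0.15, and reads of the pair may be split. Mogat2, a monoacylglycerol acyltransferase, had 11.2, 14.5 and 22.1 CPM in digenic and 42.4, 33.8 and 39.9 CPM in Pkd1-RC/RC kidneys, and fell by 1.28 on the log2 scale.

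Among the other called falls, Prodh2, which oxidizes hydroxyproline, had 39.4, 36.8 and 41.9 CPM in digenic and 75.4, 69.3 and 52.2 CPM in Pkd1-RC/RC kidneys. Grhpr, the glyoxylate reductase downstream of hydroxyproline, had 96.1, 100.6 and 111 CPM in digenic and 137, 138 and 139 CPM in Pkd1-RC/RC kidneys. Slc7a8, a basolateral amino acid exchanger, had 155, 123 and 160.5 CPM in digenic and 237, 198 and 243 CPM in Pkd1-RC/RC kidneys. These 3 genes, named by a rule that requires no overlap between the groups, had log2 fold changes of -0.74 ± 0.14, -0.43 ± 0.08 and -0.63 ± 0.12. Slc13a3, the basolateral dicarboxylate transporter, fell by 0.58 on the log2 scale, as did Npl, the sialic acid lyase. Aldh8a1, an aldehyde dehydrogenase of tryptophan breakdown, fell by 1.10 and Cela1, a pancreatic-type elastase, by 1.10. Chrna4, a nicotinic receptor subunit, and March10, a ubiquitin ligase, fell by 1.05 and 1.28 on the log2 scale at levels under 20 CPM.

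Most markers of the proximal tubule were not called. Of 36 measured proximal tubule markers, 1 was called lower (Miox) and 0 higher, beside 0.133% and 0.327% of all genes. The median log2 fold change was -0.20, and 25 had a lower and 11 a higher fitted level. In 10 the digenic libraries lay wholly below and in 6 wholly above the Pkd1-RC/RC libraries, beside 9.79% and 9.35% of all genes. Slc34a1, the phosphate cotransporter, had 1034, 891 and 1186 CPM in digenic and 1490.0, 1038 and 1446 CPM in Pkd1-RC/RC kidneys (adjusted p = 0.518), with overlap. Slc5a2, the glucose cotransporter of the early proximal tubule, had 65.4, 38.3 and 79.5 CPM in digenic and 109, 86.4 and 133 CPM in Pkd1-RC/RC kidneys, without overlap (adjusted p = 0.107). Collecting duct principal cell genes had a median of 0.33 with 0 of 13 called, beside 0.46% of all genes. In 6 of the 13 the digenic libraries lay wholly above and in 0 wholly below the Pkd1-RC/RC libraries, beside 9.35% and 9.79% of all genes. The water channel genes Aqp2 and Aqp3 differed by 1.09 ± 0.41 and 0.66 ± 0.18 (log2, SE), with adjusted p-values of 0.370 and 0.142. The 25 cell cycle genes had a median of -0.28 and 24 had a lower fitted level. Of these genes 0 were called, beside 0.46% of all genes. In 10 the digenic libraries lay wholly below and in 0 wholly above the Pkd1-RC/RC libraries, beside 9.79% and 9.35% of all genes.

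No tubular injury gene passed the threshold between digenic and Pkd1-RC/RC kidneys at this age. Of 25 tubular injury genes 0 were called, beside 0.46% of all genes, with a median of 0.32. In 9 the digenic libraries lay wholly above and in 1 wholly below the Pkd1-RC/RC libraries, beside 9.35% and 9.79% of all genes. Between digenic and WT kidneys 3 of the 25 were called, beside 2.7% of all genes. Havcr1, the kidney injury molecule, had 10.6, 21.02 and 2.92 CPM in digenic and 1.22, 1.41 and 1.68 CPM in Pkd1-RC/RC kidneys. Its groups did not overlap, yet the log2 fold change of 3.00 ± 0.65 missed the threshold (adjusted p = 0.0800), again with digenic replicate 2 highest and replicate 3 lowest. Lcn2, the second injury marker, had 17.5, 11.7 and 12.4 CPM in digenic and 13.4, 11.8 and 10.9 CPM in Pkd1-RC/RC kidneys, and the groups overlapped. Of 14 targets of the Hippo effector YAP, 0 were called, beside 0.46% of all genes, with a median of 0.28. In 5 of them the digenic libraries lay wholly above and in 0 wholly below the Pkd1-RC/RC libraries, beside 9.35% and 9.79% of all genes. Ankrd1 differed by 1.73 ± 0.38 (adjusted p = 0.0713). Among 27 genes of cystic disease and the cilium, Pkhd1 was the only gene called, beside 0.46% of all genes. The median of that list was 0.12. Median log2 fold changes lay between -0.07 and 0.02 in the lists for podocytes, nephron progenitors, ureteric tip, endothelium and stroma. In these lists 0 genes were called, beside 0.46% of all genes. The 9 erythroid genes had a median of -0.95 with 0 called, and summed to 571, 293 and 851 CPM in digenic and 1104, 873 and 1237 CPM in Pkd1-RC/RC kidneys. Digenic replicate 2 had the lowest erythroid sum and the highest interferon levels, and the part of blood in the results was not tested.

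Of 1171 genes tested on chromosome 1, 15 were called (1.28%), beside 0.46% of all genes. Within 20 Mb of Pkhd1 6 of 180 tested genes were called (3.33%), Pkhd1 and its antisense transcript among them, and all 6 were lower in digenic kidneys; over the rest of the chromosome 9 of 991 were called (0.908%). Snhg6, a small nucleolar RNA host gene, had 7.23, 6.70 and 6.41 CPM in digenic kidneys, against 18.9, 18.8 and 15.5 CPM in Pkd1-RC/RC kidneys. Adhfe1, a hydroxyacid-oxoacid transhydrogenase, had 27.05, 28.4 and 36.9 CPM in digenic and 66.3, 62.6 and 64.3 CPM in Pkd1-RC/RC kidneys. Pkhd1-/- kidneys had 5.62 to 8.12 CPM of Snhg6 and 30.5 to 34.5 CPM of Adhfe1, so both genotypes with the Pkhd1 mutation were low. Rrs1 and 2610203C22Rik, which lie beside Adhfe1 about 10.5 Mb from Pkhd1, fell by 0.66 and 0.95 on the log2 scale in digenic kidneys. Their log2 fold changes in Pkhd1-/- against WT kidneys were -0.61 and -0.76, and neither was called there.

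Sp110, a nuclear body protein on the same chromosome but outside that interval, gave the largest called fall among the genes named by rule. It had 0.211, 0.103 and 0.103 CPM in digenic kidneys, against 1.77, 2.78 and 1.99 CPM in Pkd1-RC/RC kidneys, a log2 fold change of -3.96 ± 0.45 (SE; adjusted p = 0.00326). In raw counts Sp110 had 31 in the digenic and 398 in the Pkd1-RC/RC libraries, and the overlapping gene G530012D18Rik had 1 and 101. The digenic level of Sp110 was not uniform at other ages: it was 0, 0.0534 and 0.874 CPM at P0 and 0.123, 2.03 and 3.08 CPM at P12, against 1.45 to 2.61 CPM and 2.46 to 3.69 CPM in Pkd1-RC/RC kidneys. Pkhd1-/- kidneys at P3 had 2.45, 0.964 and 0.845 CPM of Sp110, and WT kidneys had 2.04, 2.79 and 2.63 CPM. Sp110 belongs to a family of interferon-induced nuclear proteins, and it went opposite to the interferon response list. The cause of its fall was not tested.

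Few genes separated Pkd1-RC/RC from WT kidneys. With the same fit, 8 genes (0.0443%) were called between Pkd1-RC/RC and WT, 3 (0.0166%) between Pkhd1-/- and WT, and 487 (2.7%) between digenic and WT. Of the 83 genes, 74 were also called between digenic and WT and 0 between Pkd1-RC/RC and WT; these comparisons share libraries and are set side by side only. The interferon response list had a median of 1.63 in digenic against WT, 0.16 in Pkd1-RC/RC against WT and -0.22 in Pkhd1-/- against WT. Ifit1 differed by 2.58 ± 0.37 in digenic against WT and by 0.45 in Pkd1-RC/RC against WT. Serpina6 differed by 1.58 in digenic against WT and by 0.63 in Pkd1-RC/RC against WT, the second not called. For some falls the digenic level lay near WT: Grhpr differed by -0.06 in digenic against WT and by 0.37 in Pkd1-RC/RC against WT, and neither was called.

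**Figure D4:**
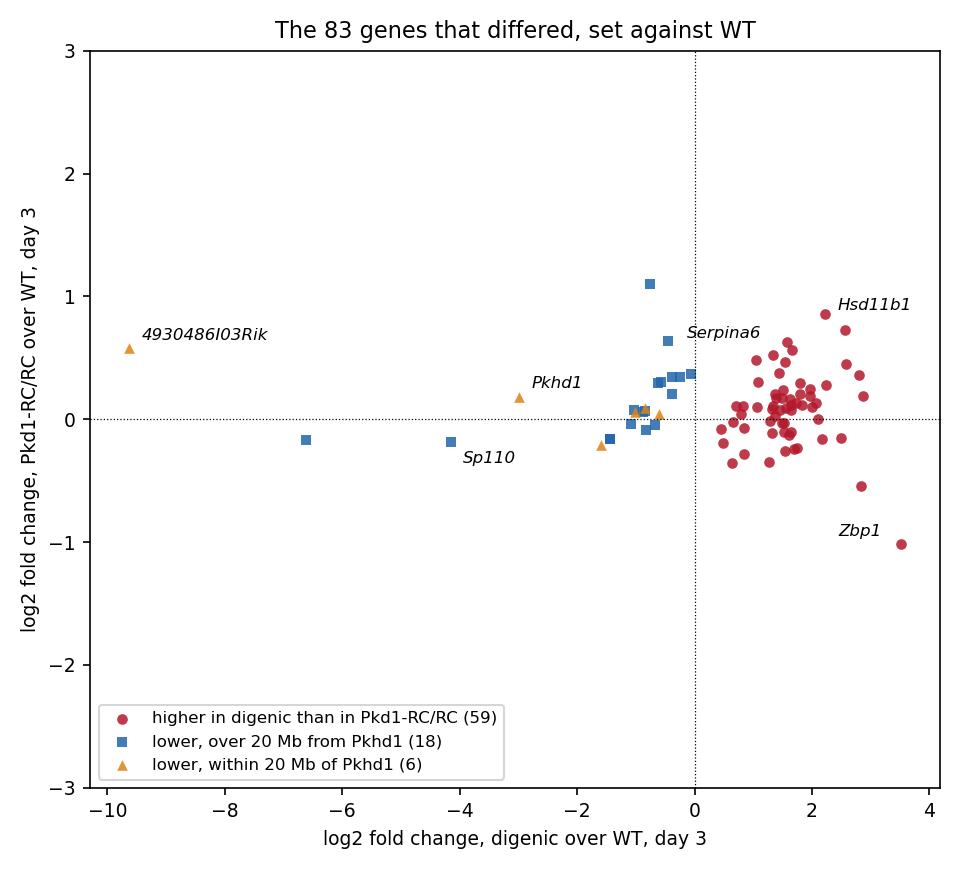
The 83 called genes by log2 fold change of digenic over WT (x axis) and of Pkd1-RC/RC over WT (y axis) at P3; colour marks rises, falls away from Pkhd1 and falls within 20 Mb of it. Most points spread along the digenic axis, and the P3 WT and both mutant groups enter the axes and the choice of genes, so the axes are not independent.

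Whether the loss of Pkhd1 acted differently with and without the RC alleles was tested as an interaction, the difference of digenic and Pkd1-RC/RC minus the difference of Pkhd1-/- and WT. By edgeR 0 genes were called (0%), and 1457 had an unadjusted p under 0.05; DESeq2 called 211. The interaction of Ifit1 was 2.42 (log2; adjusted p = 0.178) and that of Pkhd1 was 0.33 ± 0.27 (adjusted p = 0.799). Without digenic replicate 3 edgeR called 196 genes, and without WT replicate 2 it called 5.

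More genes separated digenic from Pkd1-RC/RC kidneys at later ages. In a fit of all 36 libraries, which come from separate mice at each age, 63 genes (0.349%) were called at P0, 194 (1.07%) at P3 and 2198 (12.2%) at P12. The 5 adrenal steroid genes summed to 95.6 and 131 CPM in P12 digenic replicates 2 and 3, against 3.02 to 3.95 CPM in P12 Pkd1-RC/RC libraries. They summed to 373 CPM in P0 Pkd1-RC/RC replicate 2. By transcripts all P12 Pkd1-RC/RC libraries were male and P12 digenic replicate 3 was female. The part of adrenal transcripts in the results by age was not tested. Of the 83 genes above, 12 were called at P0 and 49 at P12, with the same sign in 53 at P0 and in 80 at P12. The change in the difference between P0 and P3 was called for 7 genes (0.0388%), 6 towards higher in digenic kidneys (0.0332%) and 1 towards lower (0.00554%). Levels in this fit are scaled over 36 libraries. Ifit1 had 2.53, 2.11 and 3.27 CPM in digenic and 3.59, 4.89 and 14.5 CPM in Pkd1-RC/RC kidneys at P0. At P3 it had 12.5, 28.5 and 8.38 CPM in digenic and 4.11, 4.10 and 2.99 CPM in Pkd1-RC/RC kidneys. At P12 it had 15.2, 3.82 and 4.24 CPM in digenic and 4.04, 3.13 and 1.57 CPM in Pkd1-RC/RC kidneys. Thus the digenic libraries were below, above and partly above the Pkd1-RC/RC libraries at the 3 ages, and the change between P0 and P3 was 3.68 ± 0.68 (log2, SE; adjusted p = 0.0340). The other called increases were Phf11d, Evi2a, Rnf213, Dhx58, which regulates RNA sensing, and Ifi203, of a family of nucleic acid sensors. Selenbp2, named because it was the only decrease, differed by 1.17 at P0 and by 0.04 at P3 (log2). Leaving out 1 library at a time gave 2 to 17 called changes, and 112 without digenic replicate 3 of P3.

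Between P3 and P12 the difference changed for 415 genes (2.3%), 196 towards higher (1.09%) and 219 towards lower (1.21%) in digenic kidneys. Lcn2 had 16.7, 11.2 and 11.8 CPM in digenic and 12.7, 11.2 and 10.39 CPM in Pkd1-RC/RC kidneys at P3. At P12 it had 492, 147 and 135 CPM in digenic and 24.0, 24.6 and 20.8 CPM in Pkd1-RC/RC kidneys. The injury marker that overlapped between the groups at P3 thus separated them at P12. The neutrophil genes S100a8 and S100a9, the neutrophil secreted factor Retnlg and the macrophage gene Ms4a7 changed the same way. Mterf4, a mitochondrial transcription factor, changed by -0.88 ± 0.13 towards lower in digenic kidneys. Of the 83 genes, 3 had a called change between P3 and P12. The count of 415 was 270 without P12 digenic replicate 1, whose column is headed P3, and 435 without P12 Pkd1-RC/RC replicate 2, whose column is headed Pkhd1 but which had 233 CPM of Pkhd1, close to the 225 and 216 CPM of the other Pkd1-RC/RC libraries of that age. It was 594 without P12 digenic replicate 2 and 165 to 368 without any other of the 12 libraries in turn.

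**Figure D5:**
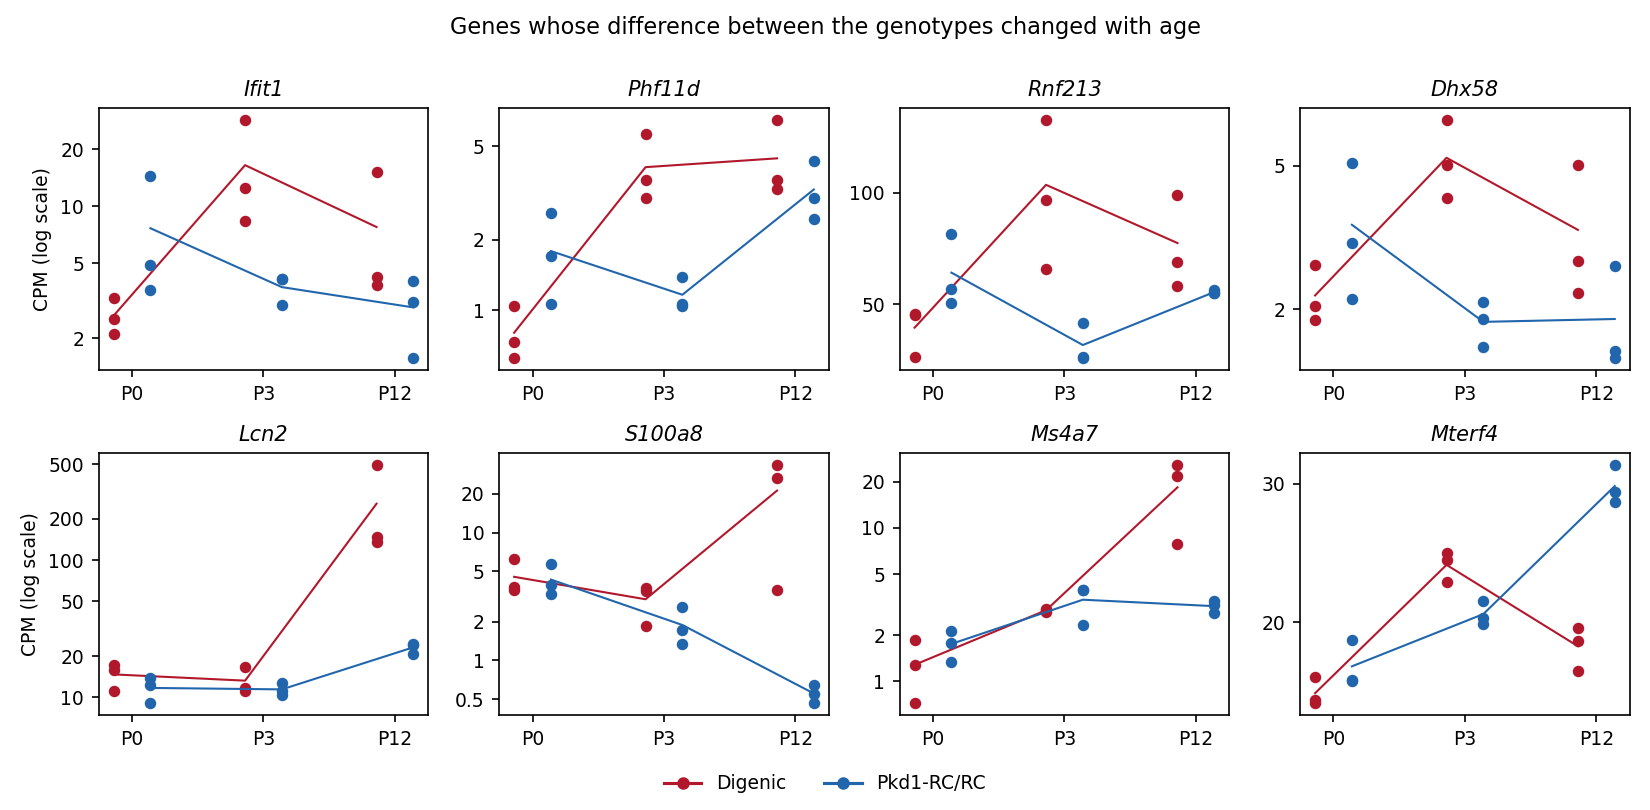
CPM (y axis, log scale) of 8 genes at P0, P3 and P12 (x axis) in digenic and Pkd1-RC/RC kidneys; points are libraries and lines join group means. Ifit1, Phf11d, Rnf213 and Dhx58 separate the genotypes at P3 without overlap, and Lcn2, Ms4a7 and S100a8 do so at P12.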

How the data were processed

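RNA was sequenced as 150-base paired reads. Reads were aligned to mm10 with TopHat2 and Bowtie in MAP-RSeq 2.1.0, per the submitters' processing notes and design text, which also name featureCounts for the counting. The deposited table holds raw counts per gene and library, per the file headers; 36 normalized per-sample columns were not used. Columns were matched to samples by mouse number. Headers of 2 P12 libraries differ from their labels in age or genotype, and the labels were used. The table lists 18049 genes, and its lowest gene mean was 8.75 counts.

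Counts were filtered (18043 genes), scaled by TMM and tested with edgeR 4.0.16 (quasi-likelihood, robust, limma 3.58.1, R 4.3.3) over 12 P3 or all 36 libraries. Fold changes are on the log2 scale and p-values were adjusted after Benjamini-Hochberg. P-values set the difference between groups against the spread between mice of the same group. That spread was estimated over all groups of a fit and shared in part across genes. At 54188772 to 77637005 counts per library, counting error is small except for the lowest genes. Alternatives were DESeq2 1.42.0, other scaling, no filter, a replicate block, sex, gene length, other sets of libraries and leaving libraries out.

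The genes and 36 lists were chosen with earlier results of these data known. Named genes were the 15 largest rises and the 14 eligible falls among called genes with an official symbol, average log2 CPM of 0 or more, no overlap between the groups' libraries, no sex linkage and over 20 Mb from Pkhd1, plus Pkhd1, Pkd1 and Pkd2, up to 6 called or 2 defining members per list and up to 6 genes per change with age; other genes were chosen after their values were seen. GENCODE M21 held 17864 (99.0%) of the identifiers. No pair of libraries had identical counts. The tests were tried on simulated data.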

Additional observations from a re-analysis of the deposited data

Results flagged for a closer look

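The difference between digenic and Pkd1-RC/RC kidneys depended on age for some genes by the test of the change itself (edgeR, 36 libraries). Between P0 and P3 the change was called for 7 genes. On the log2 scale it was 2.98 for Phf11d, 2.27 for Evi2a, 1.94 for Rnf213, 3.68 for Ifit1, 2.17 for Dhx58 and 1.89 for Ifi203. In Ifit1 and Dhx58 the Pkd1-RC/RC libraries at P0 included 1 that was higher than the other libraries of that age, at 14.5 and 5.11 CPM. This library, replicate 3, was also the highest of the P0 Pkd1-RC/RC libraries for Phf11d, Rnf213 and Ifi203, but not for Evi2a. Without it the change was called for 2 genes, as it was without Pkd1-RC/RC replicate 1 of P3. Between P3 and P12 the change was called for 415 genes. On the log2 scale it was 3.27 for Lcn2, -0.88 for Mterf4, 4.59 for S100a8, 6.46 for Retnlg, 2.80 for Ms4a7 and 4.74 for S100a9. Digenic replicate 2 at P12 had 3.53 CPM of S100a8, against 26.7 and 33.5 CPM in the other digenic libraries of that age.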

How the results depend on the processing

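The count of 83 genes became 525 with DESeq2, 37 with the 6 libraries alone, 194 with all 36, 191 without libraries holding adrenal transcripts and 7 with sex by transcripts as a term; it was 83 with RLE scaling or no filter, 98 after removing the gene length trend and 58 with a 2-fold minimum. In settings chosen after seeing the data it was 4 with the header's sex as a term and 9 without the libraries whose sex disagreed. The setting without adrenal transcripts also drops digenic replicate 3 and the Pkd1-RC/RC library that was female by transcripts. Leaving out 1 library gave 9 to 456. The interaction count of 0 became 211 with DESeq2 and 0 to 196 when 1 library was left out. The change between P0 and P3 (7 genes) became 97 with DESeq2, 9 with sex and 2 to 112 when 1 library was left out. The change between P3 and P12 (415) became 685 with DESeq2, 394 with sex and 165 to 594 when 1 library was left out. The causes of these shifts were not tested. Gene by gene, 860 alternative values kept their side of the threshold, 789 lost a call and 0 reversed. All of these genes but Pkd1 and Pkd2 were chosen by a call in these data, so the absence of reversals follows in part from that choice. List medians moved beyond the spread of replicates in 41 of 612 cases.

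Same-numbered digenic and Pkd1-RC/RC libraries deviated with correlations of -0.31, 0.16 and -0.36, and differently numbered ones with -0.27 to 0.43. With 3 libraries per group these values cannot show whether the numbers pair mice. With a replicate block the counts were 27, 0, 5 and 269, and 26 of the 83 genes were among the 27. Sex and genotype overlap in all but 1 of the 6 libraries, so their parts cannot be told apart at this size.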
